A study of Ovis aries with 3 samples.

Results

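The miR-30 family was followed along the sheep intestine in 3 small RNA libraries, 1 of each segment: duodenum (DU), cecum (CE), and colon (CO). Its members were the rows of the count files named oar-miR-30 with a letter from a to d. There were 5 such rows among 146 known sheep miRNAs and 822 entries in all. Each library pooled RNA from 3 ewes, Small tailed Han sheep aged 11 months, for which no treatment is labelled, and the tissue is labelled intestinal mucosal epithelial tissue. Each segment thus had 1 library, without replicates. A difference between libraries could therefore not be set against the spread between animals, and the intervals given here describe counting error only.

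miRNAs are cut from hairpin precursors as a duplex of a 5p and a 3p strand, and usually one strand is kept in Argonaute while the other is degraded. The seed, bases 2 to 8 of the mature strand, pairs with sites in target mRNAs, so that miRNAs of 1 seed share many predicted targets. The miR-30 family is a conserved family that is abundant in many epithelia and is known for its roles in cell differentiation and in holding back the epithelial to mesenchymal transition.

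The mature sequences are shown because they decide both which members can act on the same targets and which reads can be told apart. They are given 5′ to 3′ as in the count files, with the seed in capitals. The first 5 are the miR-30 rows, and the last 2 are predicted entries with the same seed.
oar-miR-30a-5p: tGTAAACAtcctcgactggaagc
oar-miR-30b: tGTAAACAtcctacactcagc
oar-miR-30c: tGTAAACAtcctacactctca
oar-miR-30d: tGTAAACAtccccgactgg
oar-miR-30a-3p: cTTTCAGTcggatgtttgcag
novel_mir_2: tGTAAACAtccttgactggaagct
novel_mir_140: tGTAAACAccctacactctcagc

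oar-miR-30a-5p, oar-miR-30b, oar-miR-30c, and oar-miR-30d began with the same seed, GTAAACA, whose reverse complement is TGTTTAC. No arm is named for the b, c, and d rows, and by this seed they belong to the 5p arm. oar-miR-30a-3p, the other strand of the miR-30a duplex, had the seed TTTCAGT, which no other entry of the 822 shared. Among all 822 entries, 6 had the seed GTAAACA, the 4 members and 2 predicted entries. novel_mir_2 had the sequence listed by the study as bta-miR-30e-5p, and novel_mir_140 was contained in that listed as bta-miR-30f.

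The members differed outside the seed. Counted from the 5′ end, oar-miR-30a-5p and oar-miR-30d differed over the 19 bases of the latter at 1 position, T12C, and oar-miR-30a-5p differed from novel_mir_2 at C13T. oar-miR-30b and oar-miR-30c shared their first 18 bases and differed at A19T, G20C, and C21A, so a read of 18 bases from the 5′ end would match both. oar-miR-30c and novel_mir_140 differed over 21 bases at T9C alone. None of the 822 entries contained a member's sequence or lay within one.

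In the RefSeq annotation of another sheep assembly (ARS-UI_Ramb_v3.0), MIR30D and MIR30B were next to each other, with no annotated gene between them. MIR30C overlapped NFYC, the gene of a subunit of the transcription factor NF-Y, and MIR30A and MIR30B each overlapped a gene annotated as lncRNA. No coordinates are given, since this assembly is not the one the study mapped to.

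Counts were divided by the clean reads that mapped to the genome, per 1000000, and are called normalized reads. The counts added up to 14462675 reads (duodenum), 15072945 (cecum), and 13769740 (colon), or 83.11% to 88.64% of the mapped reads, and 3 reads corresponded to 0.176 to 0.181 normalized reads. Each miR-30 row had at least 1791 reads in each library. The epithelial miRNAs oar-miR-200a, oar-miR-200b, oar-miR-200c, and oar-miR-194 were present at 4306 to 9655 normalized reads each and summed to 28477 (duodenum), 20415 (cecum), and 33447 (colon). oar-miR-200b alone went from 4450 in the duodenum to 8835 in the colon. The study reported that its quantitative RT-PCR did not follow this, and placed relatively high levels of oar-miR-200b in the duodenum. None of the 8 markers checked was at 0. oar-miR-143, a miRNA of smooth muscle and mesenchymal cells, had 275281, 429102, and 399239 normalized reads in the same order, and the muscle miRNA oar-miR-133 had 236, 534, and 294. The lymphoid miRNAs oar-miR-150 and oar-miR-181a summed to 994 to 1342 normalized reads. The epithelial miRNAs were thus present, beside a mesenchymal one at higher levels in each library. The epithelial sum was lowest, and that of oar-miR-143 and oar-miR-133 highest, in the cecum. The latter sum was nearly all oar-miR-143. oar-miR-199a-3p, another miRNA of mesenchymal cells, was not among the markers and went the other way, with a log2 ratio of -0.227 from duodenum to cecum. Whether these differences in markers play a part in the miR-30 values was not tested, and fewer cells of a type and less RNA per cell cannot be told apart in such libraries.

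oar-miR-30d was the most abundant member in each library. It had 6798 normalized reads in the duodenum (exact Poisson 95% interval 6759 to 6838), 8192 in the cecum (8149 to 8235), and 8529 in the colon (8485 to 8574). It was thus lowest in the duodenum, and no 2 of these intervals overlapped. Among the 146 known miRNAs it ranked 13, 11, and 13 by reads in duodenum, cecum, and colon, respectively. It held 56.8% of the reads of the 4 members of the 5p arm in the duodenum, 60.39% in the cecum, and 59.81% in the colon.

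oar-miR-30a-5p, the more abundant strand of miR-30a, had the flattest profile of the members by normalized reads. It had 3485 normalized reads in the duodenum (3457 to 3514), 3508 in the cecum (3480 to 3536), and 3454 in the colon (3426 to 3482). These 3 intervals overlapped. By share of the reads of known miRNAs oar-miR-30a-5p was less level, with 0.531%, 0.4484%, and 0.4597% in duodenum, cecum, and colon. Its share of the reads of the 5p members was 29.12% in the duodenum, 25.86% in the cecum, and 24.22% in the colon.

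oar-miR-30c was highest in the colon. It had 1554 normalized reads in the duodenum (1535 to 1573), 1709 in the cecum (1689 to 1729), and 2169 in the colon (2147 to 2191). Its share of the 5p members was 12.98%, 12.6%, and 15.21%. By reads it moved from rank 28 of the known miRNAs in the duodenum to rank 22 in the colon.

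oar-miR-30b, the rarest member, went the other way in the colon. It had 131 normalized reads in the duodenum (126 to 137), 156 in the cecum (150 to 162), and 108 in the colon (103 to 113). It was thus highest in the cecum and lowest in the colon, while its neighbour in the genome, oar-miR-30d, was highest in the colon. oar-miR-30b made up 1.096%, 1.147%, and 0.7581% of the reads of the 5p members.

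oar-miR-30a-3p, the minor strand, had 143 normalized reads in the duodenum (138 to 149), 161 in the cecum (155 to 167), and 140 in the colon (134 to 146). It was highest in the cecum, and its intervals in the duodenum and the colon overlapped. The order of levels was the same in each library, with oar-miR-30d first, followed by oar-miR-30a-5p, oar-miR-30c, oar-miR-30a-3p, and oar-miR-30b. The neighbours oar-miR-30a-3p and oar-miR-30b had overlapping intervals in the cecum only, and all other neighbours in this order were apart in each library. Read counts of different miRNAs also depend on how well each is cloned, which was not measured.

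**Figure D1:**
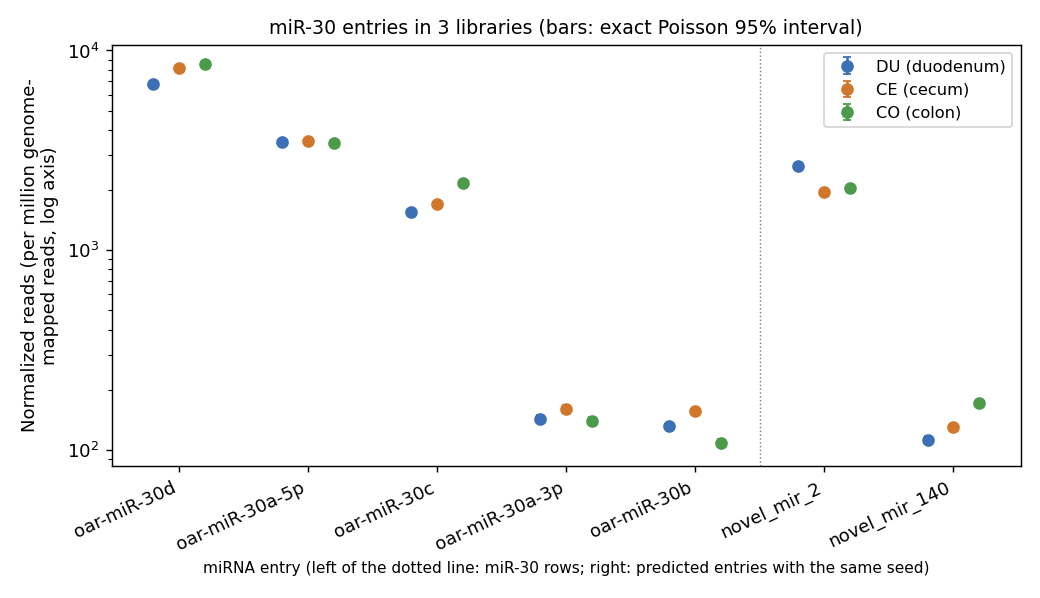
Normalized reads (log axis) of the 5 miR-30 rows and the 2 predicted entries with the same seed, 1 point per library, with exact Poisson 95% intervals that are mostly smaller than the points. oar-miR-30d sits highest at 6798 to 8529, oar-miR-30a-5p is nearly level at 3454 to 3508, and oar-miR-30b is lowest in the colon, where oar-miR-30c is highest.

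The 4 members of the 5p arm together had 11969 normalized reads in the duodenum, 13565 in the cecum, and 14260 in the colon. They were 1.823%, 1.734%, and 1.898% of the reads of known miRNAs, in the same order, so by this share the cecum was lowest. In normalized reads the sum was instead higher in the cecum than in the duodenum, by a log2 ratio of 0.18 (exact 95% interval 0.17 to 0.19). The direction between duodenum and cecum thus depended on the divisor. The sum was higher in the colon than in the duodenum by 0.25 (0.24 to 0.26). From colon to cecum its log2 ratio was -0.072 (-0.080 to -0.064). Other library sizes (clean reads, the sum of all counts, and the scalings TMM of edgeR and size factors of DESeq2) moved these values by more than their intervals, to between 0.144 and 0.305 from duodenum to cecum, 0.297 and 0.41 from duodenum to colon, and -0.165 and -0.0203 from colon to cecum, where the geometric mean of the 4 members gave 0.0364, with the opposite sign. Without oar-miR-30d, the log2 ratio of the sum was 0.0553 from duodenum to cecum, 0.148 from duodenum to colon, and -0.0932 from colon to cecum. The median log2 ratio of the known miRNAs on the same scale was 0.27 from duodenum to cecum (93 known entries tested), 0.22 from duodenum to colon (94 tested), and 0.081 from colon to cecum (94 tested). Relative to these medians the sum differed by -0.089, 0.034, and -0.15. Below it lay 42 of 93, 48 of 94, and 36 of 94 known entries. The family total was thus not far from the middle of the known miRNAs tested. Many of these are of a single imprinted cluster (DLK1-DIO3), for instance oar-miR-379-5p and oar-miR-409-3p. Most of that cluster was higher in the cecum and the colon than in the duodenum. The medians and counts lean on it and were not computed without it.

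To see whether any member differed between 2 libraries by the study's own thresholds, the Audic-Claverie exact test was run on the counts. It compares the reads of 2 libraries and not the segments. Entries that reached 1 normalized read in one or both libraries entered the test, and a call needed a fold of 2 or more with a p-value under 0.01 after Bonferroni correction. The scale was not that of the study, whose formula divides by all clean reads instead of the mapped ones. All 5 members were tested in each comparison, and 0 of 5 were called in any. From duodenum to cecum, 36.5% of all entries tested and 11.8% of the known ones were called. The shares were 33.9% and 6.38% from duodenum to colon, and 22.7% and 2.13% from colon to cecum. The members stayed below a fold of 2 in each comparison, and on this scale their largest difference was that of oar-miR-30b, 1.439-fold higher in the cecum than in the colon. With clean reads, the sum of all counts, or the TMM library size, it was that of oar-miR-30c from duodenum to colon, with log2 ratios of 0.584, 0.537, and 0.638.

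From duodenum to cecum, the 5 log2 ratios lay between 0.0094 and 0.27 and none was negative on the scale by mapped reads. The highest was that of oar-miR-30d (0.27, exact 95% interval 0.26 to 0.28), at the median of the known miRNAs, and the lowest that of oar-miR-30a-5p (0.0094, -0.0071 to 0.026). oar-miR-30b was at 0.25 (0.16 to 0.33), oar-miR-30a-3p at 0.17 (0.086 to 0.25, and 0.291 with TMM), and oar-miR-30c at 0.14 (0.11 to 0.16). None of the 5 log2 ratios lay more than 0.322 from 0, against 67.7% of the known entries tested, and the interval left out 0 for 4 of 5, against 86% of the known entries. Both counts are those of the scale by mapped reads. Beyond 0.322 lay 2 of 5, oar-miR-30b and oar-miR-30d, with clean reads (0.323 and 0.346), with the TMM library size (0.37 and 0.394), and with DESeq2 size factors (0.342 and 0.365), and oar-miR-30c was at 0.262 with TMM.

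From duodenum to colon, the members spread apart. oar-miR-30c (0.48, 0.46 to 0.50) and oar-miR-30d (0.33, 0.32 to 0.34) were higher in the colon, and both lay more than 0.322 from 0. oar-miR-30b was lower (-0.28, -0.37 to -0.19), with -0.177 on the scale of clean reads and -0.123 on that of TMM. Both strands of miR-30a had intervals that held 0, with -0.013 (-0.030 to 0.0036) for the 5p and -0.032 (-0.12 to 0.051) for the 3p strand. These 2 of 5 beyond 0.322 compare with 71.3% of the known entries tested, and the 3 of 5 intervals that left out 0 with 80.9%. Both counts are again those of the scale by mapped reads. oar-miR-30a-5p was at 0.0898 with clean reads and 0.144 with TMM. Against the median known miRNA, oar-miR-30c was 0.26 higher and oar-miR-30b 0.50 lower on the log2 scale, with 65 and 29 of the 94 known entries tested below them.

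From colon to cecum, the same 2 members lay on opposite sides. oar-miR-30b was higher in the cecum by a log2 ratio of 0.53 (0.44 to 0.61), above 79 of the 94 known entries tested. oar-miR-30c was lower in the cecum (-0.34, -0.37 to -0.32), with 14 of the 94 below it. oar-miR-30a-3p was at 0.20 (0.12 to 0.28), oar-miR-30a-5p at 0.022 (0.0059 to 0.039), and oar-miR-30d at -0.058 (-0.069 to -0.047), which ran from -0.151 with the sum of all counts to -0.00629 with DESeq2 size factors. oar-miR-30b and oar-miR-30c, 2 of 5, lay more than 0.322 from 0, against 42.6% of the known entries, and 5 of 5 intervals left out 0, against 70.2%. Both counts are those of the scale by mapped reads. oar-miR-30a-5p was at -0.00327 with clean reads and -0.00982 with TMM. With DESeq2 size factors oar-miR-30c was at -0.292, inside 0.322. The comparisons share libraries and are not independent of each other. The signs of oar-miR-30a-5p in all 3 comparisons and of oar-miR-30a-3p from duodenum to colon depended on the library size used. The other signs held under the library sizes tried. By share of the reads of known miRNAs, however, oar-miR-30b, oar-miR-30c, and oar-miR-30a-3p were lower in the cecum than in the duodenum. For oar-miR-30c this share was 0.2184% in the cecum against 0.2368% in the duodenum. oar-miR-30d stayed higher in the cecum, with 1.047% against 1.036%.

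**Figure D2:**
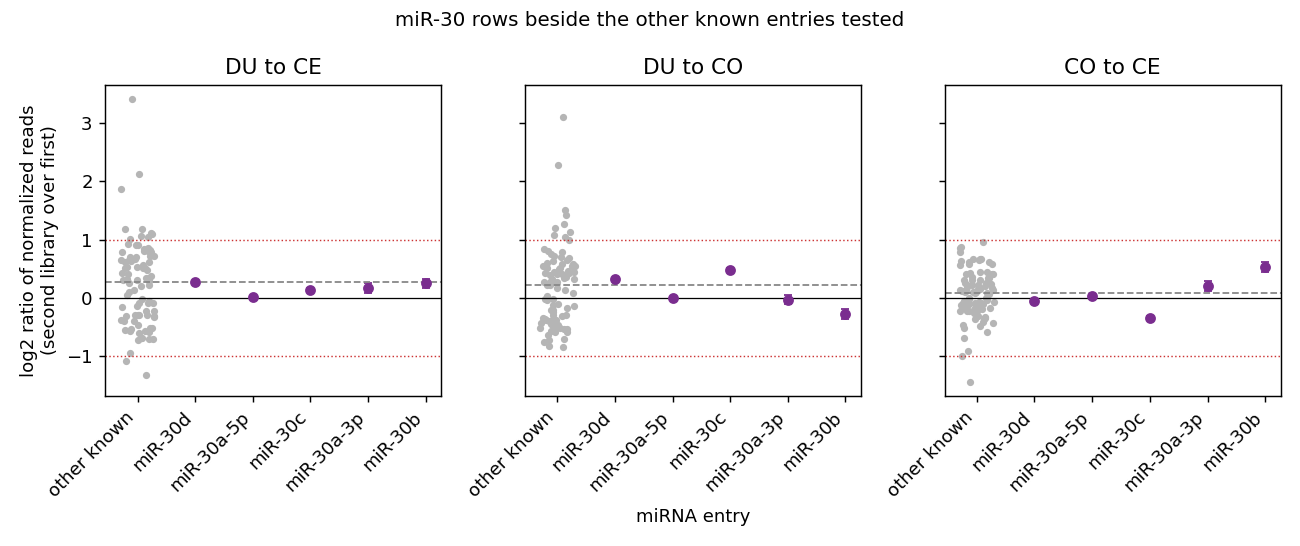
log2 ratios of normalized reads (second library over first) of the 5 miR-30 rows (purple, exact 95% intervals) beside the other known entries tested (grey), in 1 panel per comparison, with dotted lines at a fold of 2, a dashed line at the median of known entries, and a solid line at 0. The miR-30 points lie between -0.34 and 0.53, all within the dotted lines, and spread apart in the 2 panels with the colon.

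Ratios between members within a library do not depend on the library size. The ratios of all 6 pairs of 5p members were compared between libraries with Fisher's exact test, two-sided, with Benjamini-Hochberg adjustment over the 18 tests, which compare libraries and not segments. The adjusted p-value was under 0.01 in 16 of 18, and in 8 of 18 the ratio changed by more than 0.322 on the log2 scale. With counts of this size, small changes of a ratio pass such a test, so their sizes are given.

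The ratio of oar-miR-30c to oar-miR-30b was 11.84 in the duodenum, 10.98 in the cecum, and 20.06 in the colon. It differed little between duodenum and cecum (log2 change -0.11, Woolf 95% interval -0.19 to -0.024, adjusted p = 0.0134, Fisher's exact test) and was highest in the colon. The change from colon to cecum was the largest of all 18, with -0.87 on the log2 scale (-0.96 to -0.78, adjusted p = 2.56e-82, Fisher's exact test), and that from duodenum to colon was 0.76 (0.67 to 0.85). The 2 miRNAs share their first 18 bases. How reads that end within these bases were assigned is not given in the sources used here, and their number was not analysed here.

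oar-miR-30d and oar-miR-30b, which are neighbours in the genome, also changed against each other. There were 51.8 reads of oar-miR-30d for each read of oar-miR-30b in the duodenum, 52.65 in the cecum, and 78.9 in the colon. The duodenum and the cecum were not told apart (log2 change 0.023, -0.059 to 0.11, adjusted p = 0.58, Fisher's exact test). The colon differed from the duodenum by 0.61 (0.52 to 0.70, adjusted p = 3.78e-39, Fisher's exact test) and the cecum from the colon by -0.58 (-0.67 to -0.50).

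Against oar-miR-30a-5p, nearly level by normalized reads, oar-miR-30d stood at 1.95, 2.335, and 2.469 reads per read in duodenum, cecum, and colon. oar-miR-30c stood at 0.4459, 0.4871, and 0.628. Both ratios were lowest in the duodenum and highest in the colon. oar-miR-30d to oar-miR-30c was 4.374, 4.794, and 3.932, the narrowest range, by fold, of the 6 pairs.

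**Figure D3:**
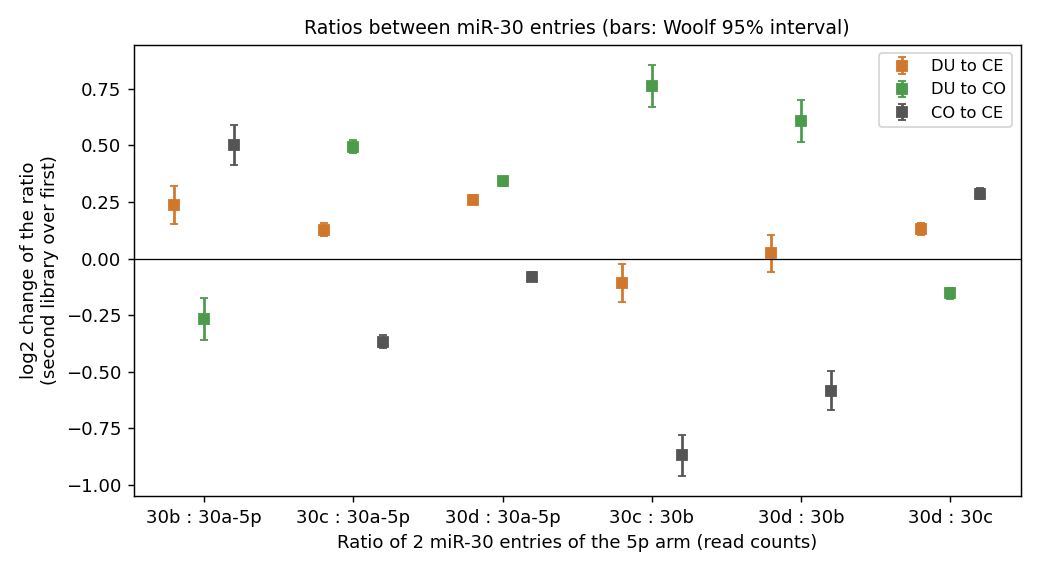
log2 change, between 2 libraries, of the read ratio of each pair of 5p members (x axis), with Woolf 95% intervals and 1 colour per comparison. The widest changes are those of 30c to 30b, at 0.76 from duodenum to colon and -0.87 from colon to cecum, while 30c to 30b and 30d to 30b lie near 0 from duodenum to cecum.

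Both strands of miR-30a had a row, so that the use of its arms could be compared. The 5p strand had 58323, 59658, and 57222 reads in duodenum, cecum, and colon, and the 3p strand 2397, 2733, and 2321. There were 24.33 reads of the 5p strand for each read of the 3p strand in the duodenum (exact 95% interval 23.36 to 25.36), 21.83 in the cecum (21.01 to 22.69), and 24.65 in the colon (23.65 to 25.71). Of the reads of both arms, the 3p strand held 3.948% in the duodenum (3.794 to 4.106%), 4.38% in the cecum (4.221 to 4.544%), and 3.898% in the colon (3.744 to 4.057%). The share of the minor strand was highest in the cecum, with an interval above those of the other libraries.

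The arm ratio fell by 0.16 on the log2 scale from duodenum to cecum (Woolf 95% interval -0.24 to -0.076, adjusted p = 0.000222, Fisher's exact test, two-sided, over 3 comparisons) and differed between colon and cecum by -0.18 (-0.26 to -0.094, adjusted p = 7.14e-05, Fisher's exact test). Between duodenum and colon the change was 0.019 (-0.065 to 0.10, adjusted p = 0.667, Fisher's exact test). These tests compare the reads of 2 libraries, and whether animals differ by as much cannot be seen here. The 5p strand was the major one in each library.

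**Figure D4:**
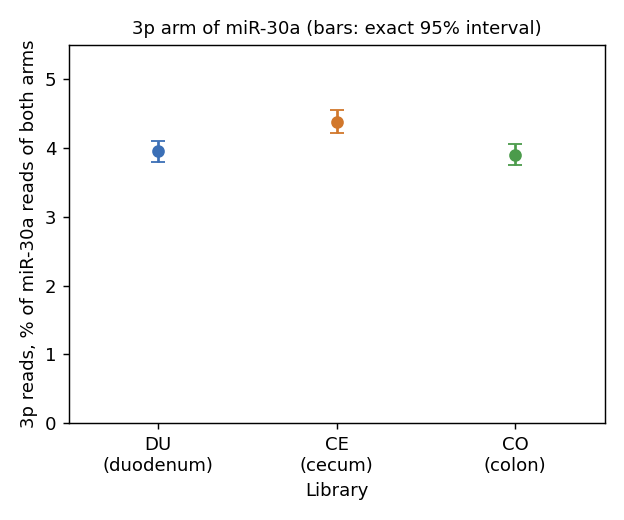
Share of the 3p strand among all miR-30a reads, in percent, 1 point per library with exact 95% intervals. The cecum, at 4.38%, lies above the duodenum at 3.948% and the colon at 3.898%, whose intervals overlap.

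A total of 42 known miRNAs had a row for each arm, miR-30a among them, and 16 others had at least 100 reads over both arms in each library. All 16 are miRNAs of the imprinted DLK1-DIO3 cluster, so they stand for a single locus and not for known miRNAs in general. The major arm was the 5p in 6 of the 16 and the 3p in 10. The share of their minor arm ran from 0.0725% to 52.8%. It was below that of miR-30a in all 3 libraries for 6 of the 16 and above it in all 3 for another 6. The minor share of miR-30a moved by 0.482 percentage points over the libraries, and 3 of the 16 moved by less. The median over the 16 was 1.81 points, but these miRNAs had fewer reads, from 108 to 10306 over both arms in their smallest library. oar-miR-379, whose smallest library held the most reads of the 16 and whose major arm was also the 5p, had 1.81%, 1.95%, and 2.35% of its reads on the 3p arm in duodenum, cecum, and colon.

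Of the 2 predicted entries of the same seed, by normalized reads novel_mir_2 was highest in another library than the members and novel_mir_140 in the same as oar-miR-30c. novel_mir_2, with the sequence of miR-30e, had 44005 reads in the duodenum, 33297 in the cecum, and 33792 in the colon, or 2630, 1958, and 2040 normalized reads. It was highest in the duodenum, with log2 ratios of -0.43 (-0.45 to -0.40) to the cecum and -0.37 (-0.39 to -0.35) to the colon. None of the 4 members of the 5p arm was highest there by normalized reads, though the intervals of oar-miR-30a-5p overlapped between libraries. By share of the reads of known miRNAs, oar-miR-30a-5p (0.531%) and oar-miR-30b (0.01999%) were highest in the duodenum too. novel_mir_2 differs from oar-miR-30a-5p at C13T alone over 23 bases. It stood at 0.7545 reads per read of oar-miR-30a-5p in the duodenum, 0.5581 in the cecum, and 0.5905 in the colon.

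novel_mir_140, whose 23 bases lie within the 24 listed for bta-miR-30f, had 1868, 2207, and 2832 reads, or 112, 130, and 171 normalized reads in duodenum, cecum, and colon. It was highest in the colon, as was oar-miR-30c, from which it differs at T9C alone. Per read of oar-miR-30c there were 0.07183, 0.07595, and 0.07881 reads of novel_mir_140, while per read of oar-miR-30b there were 0.8506, 0.8341, and 1.581. Neither predicted entry was called in any comparison.

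With the predicted entries added, 6 entries carried the seed GTAAACA, and together they had 14710 normalized reads in the duodenum, 15653 in the cecum, and 16471 in the colon. Their sum was higher than in the duodenum by a log2 ratio of 0.0896 in the cecum and 0.163 in the colon, less than for the 4 members alone. novel_mir_2 held 17.88% of these reads in the duodenum, 12.51% in the cecum, and 12.38% in the colon. oar-miR-30d held 46.21%, 52.34%, and 51.78%.

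**Figure D5:**
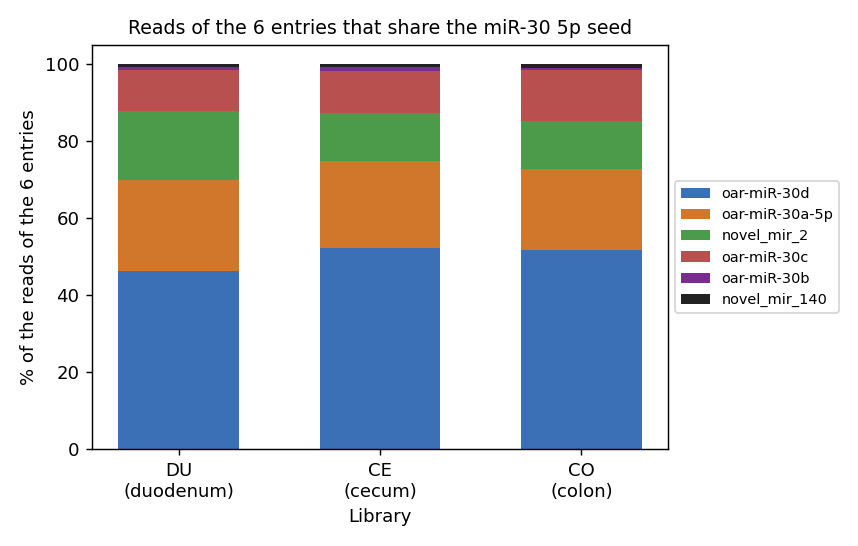
Share of each entry in the reads of the 6 entries with the seed of the miR-30 5p strand, in percent, 1 bar per library. oar-miR-30d holds the largest part in each bar, and that of novel_mir_2 goes from 17.88% in the duodenum to 12.38% in the colon.

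The known miRNAs whose pattern over the 3 libraries was most like the sum of the 5p members were sought among 47 others with at least 1000 reads in each library. Of its normalized reads over the 3 libraries, 30.1% fell to the duodenum, 34.1% to the cecum, and 35.8% to the colon. The nearest was oar-miR-493-5p, for which 3.16 percentage points of the reads would have to move between libraries to give the same shares. It was followed by oar-miR-374b (3.32 points), oar-miR-374a (3.96), oar-miR-21 (4.41), and oar-miR-143 (5.13). The levels of these miRNAs ran from 82.9 normalized reads for oar-miR-374b in the colon to 429102 for oar-miR-143 in the cecum. With 3 libraries and no replicate, this likeness is a description.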

How the data were processed

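Small RNA was sequenced from 3 libraries, 1 per intestinal segment, each of the pooled RNA of 3 ewes. The authors removed low-quality, adapter, and short reads, mapped the clean reads to Oar_v4.0 with SOAP, used BLAST and miRBase for the known miRNAs, and ran miReap for predicted ones. The submitters' processing notes also name Bowtie. The deposited files hold raw read counts, without normalization. Samples were grouped by their labelled intestinal region.

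Counts were divided by the genome-mapped clean reads that the study states, whereas its own formula divides by all clean reads. Poisson and binomial intervals are exact at 95% (Clopper-Pearson), and the Woolf interval was used for changes of ratios. The Audic-Claverie test with the doubled smaller tail ran over all entries that reached 1 normalized read in one or both libraries, with a normalized value of 0 replaced by 0.01, and was tested on simulated data. With no replicate, the quasi-likelihood test of edgeR could not be run. Alternatives used edgeR 4.0.16, DESeq2 1.42.0 size factors, and other filters and corrections. Scripts ran in Python 3.11.15 with SciPy 1.17.1.

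Named were all members, predicted entries that share a member's seed or contain or lie in its sequence with at least 10 reads in 1 library, the tissue markers, and the 5 known miRNAs nearest in pattern. The members and lists were chosen with earlier results of these data known. Likeness was the share of normalized reads that would have to move between libraries to match the profile of the 5p sum, among known miRNAs with at least 1000 reads in each library.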

Additional observations from a re-analysis of the deposited data

How the results depend on the processing

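0 of 5 members were called in any comparison under all 10 alternatives. The other filters, corrections, and tests kept the same log2 ratios and the threshold of 2-fold, which no member reached, so they could give no call. Adding 1 read to both counts changed the log2 ratios, but only slightly for members with at least 1791 reads in each library. With other library sizes the largest absolute log2 ratio of a member was 0.638, also below a fold of 2. The 5p sum had log2 ratios of 0.181 (DU to CE), 0.253 (DU to CO), and -0.0721 (CO to CE). They became 0.258, 0.356, and -0.0979 with clean reads, 0.144, 0.309, and -0.165 with the sum of all counts, 0.305, 0.41, and -0.104 with the edgeR TMM library size, and 0.276, 0.297, and -0.0203 with DESeq2 size factors. TMM shifted all log2 ratios by 0.125 (DU to CE) and 0.157 (DU to CO), and clean reads by 0.103 (DU to CO), so members were also read against the known median. With predicted entries of the same seed added, the sum was at 0.0896 (DU to CE) and 0.163 (DU to CO). Without oar-miR-30d it was at 0.0553, 0.148, and -0.0932, and the geometric mean of the members gave 0.165, 0.129, and 0.0364, so the sign from colon to cecum depends on the weighting. Of 15 member log2 ratios, 4 changed sign under at least 1 of the other library sizes tried, 3 of oar-miR-30a-5p and 1 of oar-miR-30a-3p.

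The calls over all entries numbered 127 (DU to CE), 123 (DU to CO), and 74 (CO to CE). With clean reads, the divisor in the study's formula, they numbered 96, 101, and 67. With at least 10 reads required in both libraries, fewer entries were tested and 48, 35, and 15 were called. Under edgeR's exact test 38, 40, and 31 were called when the biological coefficient of variation was set to 0.4, and 76 from DU to CE when it was set to 0.2. Of the 5 miRNAs nearest in pattern, 2 were among the nearest 5 when 100 reads per library sufficed, since more miRNAs were then compared. No entry contained a member's sequence or lay in one, so adding such entries to the arm and member ratios could give no other value. No paired analysis was possible because each segment has 1 library, and no library could be left out for the same reason.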
